A study of Mus musculus with 4 samples.

Results

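Messenger RNA was measured for 10 genes that prepare peptides for MHC class I molecules, in mouse bone marrow-derived macrophages with and without a Cre driver that targets Mettl3. The genes were chosen by symbol, and each matched 1 row of the deposited expression table, so that 10 of 55401 rows are described. They are the immunoproteasome subunits Psmb8, Psmb9 and Psmb10, the proteasome activator subunits Psme1 and Psme2, the peptide transporter subunits Tap1 and Tap2, the loading factor Tapbp, the peptide-trimming enzyme Erap1 and the transcriptional regulator Nlrc5. All 10 passed the filter on low counts, among 17260 genes tested. The knockout libraries (KO 1 and KO 3) came from mice with LysM-cre and Mettl3fl/fl, and the control libraries (WT 1 and WT 3) from Mettl3fl/fl mice, which carry the floxed alleles without the driver. All mice were C57BL/6 and 8 weeks old, and all macrophages were grown with M-CSF and then kept for 24 h beside MC38 cells, a colon carcinoma line of the mouse. Macrophages kept without tumour cells were not analysed here. LysM-cre acts in cells of the myeloid lineage, and Mettl3 encodes the catalytic subunit of the enzyme that writes N6-methyladenosine on mRNA.

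Proteasomes cut cytosolic proteins into peptides. Interferon gamma induces 3 catalytic subunits, encoded by Psmb8, Psmb9 and Psmb10, which replace the constitutive subunits encoded by Psmb5, Psmb6 and Psmb7 and so form the immunoproteasome. The peptides pass through the TAP transporter into the endoplasmic reticulum, where aminopeptidases trim them and tapasin helps to load them onto class I heavy chains. NLRC5 is a transactivator of class I genes and of several of the genes described here. Macrophages express the whole set and raise it when they meet interferon.

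The libraries held total counts of 55100415 to 79209870, and the lowest count of any of the 10 genes was 1074, for Psmb9 in WT 3. A read pair may have given about 4 counts, since 39.1% of counts from 1 to 24 were multiples of 4, and 1074 counts would then be 268.5 read pairs. Some multiples of 4 arise in any case, and most of these low counts were not multiples, so the conversion is uncertain. Mettl3 itself stood at 13.9 and 19.6 CPM (counts scaled to library size) in KO 1 and KO 3, against 18.3 and 23.2 CPM in WT 1 and WT 3 (log2 fold change -0.31 ± 0.27, SE). These groups overlap, and a count over the whole gene does not check a deletion whose exons the labels do not name. Xist stood at 0.624 CPM in KO 1 and 1162 CPM in KO 3, against 0.589 CPM in WT 1 and 1351 CPM in WT 3, and the Y-linked Ddx3y had the opposite pattern, so library number coincides with the sex pattern of the cells. Differences within number 1 (KO 1 minus WT 1) and within number 3 (KO 3 minus WT 3) are therefore given beside the pooled ones. Replicates are called biologic in the design text, which names no separate mice, so p-values measure the spread between these libraries. Each group has n = 2 libraries, and every standard error below is of a log2 difference of 2 against 2 libraries. Macrophage markers were present in every library. The 8 on the list summed to 41132 and 42926 CPM in KO 1 and KO 3. In WT 1 and WT 3 the sum was 38552 and 54699 CPM. Lyz2 alone made up most of each sum, at 25450.5 and 25785 CPM in KO 1 and KO 3. It stood at 22069 and 40813 CPM in WT 1 and WT 3. Of the 8 markers, 5 had a log2 fold change above 0 and 3 below. The sum hides uneven markers: Itgam stood at 2669 and 2119 CPM in KO 1 and KO 3. In WT 1 and WT 3 Itgam stood at 3171 and 884 CPM.

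Taken as a set, the 10 genes stood higher in KO macrophages than in WT macrophages, by a modest margin. The log2 fold change, KO over WT, was above 0 for 10 of 10 genes and ranged from 0.07 for Psmb10 to 1.03 for Tap1, with a median of 0.39. Over all genes tested the median was -0.00132, and 49.8% of genes were above 0. Both KO libraries lay above both WT libraries for 7 of the 10 genes, against 13.1% of all genes tested, and below both for 0 of 10, against 13.4%. KO was higher within both numbers for 9 of the 10, against 25.8% of all genes tested, and lower within both for 0, against 27.2%. Psmb10 was the exception, with opposite signs. The 10 genes share inducers and were read in the same 4 libraries, so these counts are not of independent observations. The genes were also chosen with earlier results of these data known, and no test of the set was made. A log2 fold change above 1 was seen for 1 of the 10, Tap1, against 3.56% of all genes. The median difference of the 10 genes was 0.38 within number 1 and 0.41 within number 3. By the quasi-likelihood test of edgeR, 0 of the 10 genes had an adjusted p under 0.05, and 0% of all genes did. At an unadjusted p under 0.05 Tap1 was 1 of the 10 to pass and stood higher in KO, where 2.27% of all genes passed in either direction and 1.3% passed as higher in KO. DESeq2 called 1 of the 10, again Tap1, and 0.295% of all genes it tested. In a bulk sample, fewer cells of a kind and less RNA per cell cannot be told apart.

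**Figure D1:**
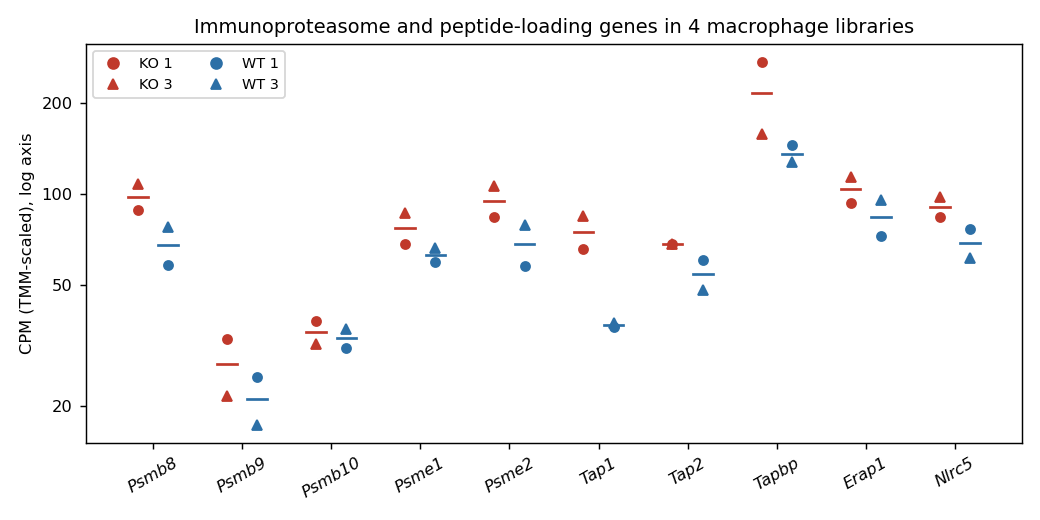
CPM of the 10 genes on a log axis, with KO libraries in red to the left of WT libraries in blue, circles for number 1, triangles for number 3 and a bar at the mean of each group. The red and blue points are fully separated for 7 genes and overlap for Psmb9, Psmb10 and Erap1.

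Among the catalytic subunits, Psmb8 had the largest difference. Psmb8 (ENSMUSG00000024338, chromosome 17, 34197721 to 34201454, plus strand) encodes the chymotrypsin-like subunit that takes the place of Psmb5. It stood at 88.4 and 107 CPM in KO 1 and KO 3, against 58.4 and 77.5 CPM in WT 1 and WT 3. Both KO values lay above both WT values, and the log2 fold change was 0.53 ± 0.21 (SE; edgeR adjusted p = 1, unadjusted p = 0.0621). KO exceeded WT by 0.60 in number 1 and by 0.47 in number 3, so both numbers showed it at a like size.

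Psmb9 (ENSMUSG00000096727, chromosome 17, 34181987 to 34187764, minus strand) encodes the subunit that takes the place of Psmb6. It stood at 33.1 and 21.6 CPM in KO 1 and KO 3, against 24.9 and 17.3 CPM in WT 1 and WT 3. KO was higher within each number, by 0.41 and 0.32, but KO 3 lay below WT 1 and the groups overlapped. Its log2 fold change was 0.37 ± 0.32 (SE; edgeR adjusted p = 1, unadjusted p = 0.297). Between library numbers Psmb9 was lower in number 3 than in number 1 in both genotypes, with a log2 difference of -0.57 ± 0.14 (SE; edgeR adjusted p = 0.181, unadjusted p = 0.0152).

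Psmb10 (ENSMUSG00000031897, chromosome 8, 105935735 to 105938104, minus strand) encodes the subunit that takes the place of Psmb7, and showed no shared direction. It stood at 38.0 and 32.1 CPM in KO 1 and KO 3, against 30.9 and 35.9 CPM in WT 1 and WT 3. KO 1 was the highest of the 4 libraries and WT 1 the lowest, with KO 3 and WT 3 between them. KO minus WT was 0.30 in number 1 but -0.16 in number 3, and the pooled log2 fold change was 0.07 ± 0.19 (SE; edgeR adjusted p = 1, unadjusted p = 0.736).

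The promoters of the set, 250 bases before to 50 bases after each annotated start from RefSeq (GRCm38.p6), were available for 8 of the 10 genes, without Tap2 and Nlrc5. They were searched on both strands for 3 motifs. The GAS motif TTCNNNGAA is a response element of interferon gamma signalling, the ISRE motif GAAANNGAAA is bound by interferon regulatory factors, and the GC box GGGCGG by factors of the SP family. GAS was found in 1 of the 8 genes, ISRE in 2 and the GC box in 6. Of all 32851 mouse promoters of 300 bases, 8.3%, 3.44% and 35.7% held them. Those shares are over the promoters of 27025 genes, and a gene such as Psme2 can have several. The Psmb10 window, 105938343 to 105938642, lies outside the gene body given above. The Tapbp window, 33919228 to 33919527, lies inside its gene body. The windows of Psmb8, Psmb9, Psme1 and Erap1 also lie inside the gene bodies of these genes. A found or missing motif may therefore reflect the start used. The Psmb8 promoter is shown because it held the GAS motif, whose pattern matches on both strands and which begins 97 bases upstream of the start. Here and below the motif is in capitals. A match describes the letters in this window and no binding was measured.
Psmb8, chr17:34197945-34198244, plus strand: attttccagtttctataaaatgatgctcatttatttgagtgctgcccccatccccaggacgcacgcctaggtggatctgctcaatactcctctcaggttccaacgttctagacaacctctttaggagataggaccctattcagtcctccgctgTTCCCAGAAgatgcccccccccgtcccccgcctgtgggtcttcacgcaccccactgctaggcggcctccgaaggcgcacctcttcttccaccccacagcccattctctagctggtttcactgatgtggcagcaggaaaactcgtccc

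The immunosubunits were next set against the constitutive subunits they replace. The deposited FPKM values divide each count by the summed length of all annotated exons: for 99.3% of 5696 genes with a count of at least 1000, the length implied by count and FPKM kept a fixed ratio, within 2%, to the exon union of GENCODE M21. That union is 3381 bases for Psmb8 and 899 bases for Psmb5, while their longest coding mRNAs have 1628 and 899 bases. Levels of different genes are therefore also given as CPM per kb of the longest coding mRNA. Psmb5 may further share reads with Gm3375, a copy that is 98.9% identical to it over 796 bases and had more counts than Psmb5 in every library (26.0 and 31.3 CPM in KO 1 and KO 3, against 22.0 and 27.8 CPM in WT 1 and WT 3). The counts of Psmb5 alone are uncertain for that reason, and its level is also given with Gm3375 added.

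On the deposited FPKM, the ratio of Psmb8 to Psmb5 was 1.21 and 1.08 in KO 1 and KO 3, against 0.761 and 0.862 in WT 1 and WT 3. Per kb of mRNA and with Gm3375 added to Psmb5, it was 1.07 and 1.03 in KO 1 and KO 3, against 0.760 and 0.828 in WT 1 and WT 3. Both KO ratios lay above both WT ratios in either form. The log2 difference, KO minus WT, was 0.50 on FPKM (0.67 within number 1 and 0.33 within number 3) and 0.41 with Gm3375 added. An exact two-sided permutation test gave p = 0.333, the smallest that 2 libraries against 2 allow.

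The ratio of Psmb9 to Psmb6 differed mainly by library number. Per kb of mRNA it was 0.274 and 0.125 in KO 1 and KO 3, against 0.241 and 0.104 in WT 1 and WT 3, so number 1 was more than 2 times number 3 in both genotypes. On FPKM the log2 difference between genotypes was 0.23, 0.19 within number 1 and 0.27 within number 3 (exact two-sided permutation p = 0.667). Per kb of mRNA, the ratio of Psmb10 to Psmb7 was 0.524 and 0.432 in KO 1 and KO 3. In WT 1 and WT 3 it was 0.556 and 0.436. On FPKM it was 1.19 and 0.979 in KO 1 and KO 3, against 1.26 and 0.988 in WT 1 and WT 3. The size of this ratio thus depends on the length used. Its log2 difference between genotypes on FPKM was -0.05 (exact two-sided permutation p = 0.667). Psmb7 overlaps Nek6 on the opposite strand by 6571 bases, and 255 of its 1160 mRNA bases match Nek6 transcripts. Nek6 had more counts than Psmb7 in every library, so the count of Psmb7 is uncertain where counting ignored the strand. Of the summed level of the 6 catalytic subunits per kb of mRNA, with Gm3375 added, the immunosubunits made up 35.6% and 29.9% in KO 1 and KO 3, against 31.9% and 26.5% in WT 1 and WT 3. The share was higher in KO within each number and higher in number 1 within each genotype, and the groups overlapped.

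**Figure D2:**
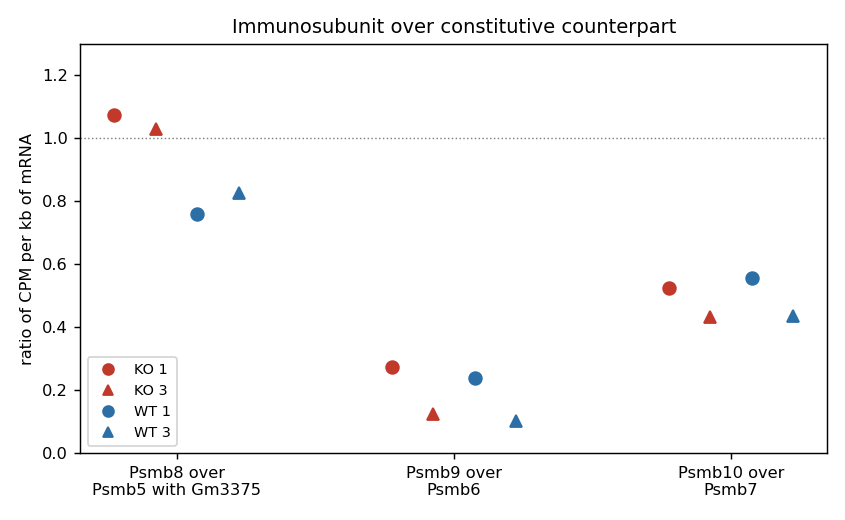
Ratio of each immunosubunit to the constitutive subunit it replaces, from CPM per kb of the longest coding mRNA, with KO libraries in red to the left of WT libraries in blue, circles for number 1 and triangles for number 3. Psmb8 over Psmb5 with Gm3375 stands at 1.07 and 1.03 in KO and at 0.760 and 0.828 in WT, while the other ratios separate by library number.

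The constitutive subunits themselves had pooled log2 fold changes smaller than their standard errors. Psmb5 stood at 19.4 and 26.3 CPM in KO 1 and KO 3, against 20.4 and 23.9 CPM in WT 1 and WT 3 (log2 fold change 0.05 ± 0.24; SE). Psmb6 stood at 71.4 and 102 CPM in KO 1 and KO 3, against 61.1 and 98.8 CPM in WT 1 and WT 3 (0.12 ± 0.32). Psmb7 stood at 64.1 and 65.7 CPM in KO 1 and KO 3, against 49.2 and 72.7 CPM in WT 1 and WT 3 (0.09 ± 0.23). In all 3 genes the KO and WT values overlapped. Within numbers 1 and 3 the differences were -0.07 and 0.14 for Psmb5, 0.22 and 0.05 for Psmb6, and 0.38 and -0.15 for Psmb7.

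Psme1 and Psme2 encode the alpha and beta subunits of PA28, a ring that caps the proteasome and opens its gate, and both are induced by interferon gamma. Psme1 (ENSMUSG00000022216, chromosome 14, 55578123 to 55581528, plus strand) stood at 68.1 and 86.4 CPM in KO 1 and KO 3, against 59.5 and 66.2 CPM in WT 1 and WT 3. Its groups did not overlap, with a log2 fold change of 0.30 ± 0.19 (SE; edgeR adjusted p = 1, unadjusted p = 0.176). Number 1 gave 0.19 and number 3 gave 0.38. Psme2 (ENSMUSG00000079197, chromosome 14, 55587441 to 55591113, minus strand) was measured at 83.8 and 106 CPM in KO 1 and KO 3, against 58.0 and 78.7 CPM in WT 1 and WT 3. Its log2 fold change was 0.47 ± 0.23 (SE; edgeR adjusted p = 1, unadjusted p = 0.1003). Number 1 gave 0.53 and number 3 gave 0.43.

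The count of Psme2 is uncertain, because Psme2b, a copy on chromosome 11, is 99.4% identical to it over 794 bases. Psme2b stood at 35.5 and 53.7 CPM in KO 1 and KO 3, against 33.0 and 35.5 CPM in WT 1 and WT 3. With both rows added, the level was 119 and 159.7 CPM in KO 1 and KO 3, against 91.0 and 114 CPM in WT 1 and WT 3. The sum had a log2 fold change of 0.44 ± 0.22 (SE; edgeR adjusted p = 1, unadjusted p = 0.110), and again both KO libraries lay above both WT libraries. The Psme1 promoter is shown because it held the ISRE motif, on the minus strand and beginning 9 bases downstream of the start, and a GC box that begins 109 bases upstream.
Psme1, chr14:55578244-55578543, plus strand: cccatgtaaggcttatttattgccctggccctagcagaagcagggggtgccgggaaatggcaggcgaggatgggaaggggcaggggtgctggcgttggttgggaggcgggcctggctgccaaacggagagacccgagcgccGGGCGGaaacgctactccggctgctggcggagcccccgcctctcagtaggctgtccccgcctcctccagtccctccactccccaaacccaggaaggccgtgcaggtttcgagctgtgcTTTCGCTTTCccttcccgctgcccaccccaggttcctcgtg

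Tap1 had the largest difference of the 10 genes. Tap1 (ENSMUSG00000037321, chromosome 17, 34187553 to 34197225, plus strand) encodes a subunit of the transporter that carries peptides into the endoplasmic reticulum. It stood at 65.6 and 84.6 CPM in KO 1 and KO 3, against 36.3 and 37.5 CPM in WT 1 and WT 3, or 75.1 ± 13.4 CPM in KO and 36.9 ± 0.867 CPM in WT (SD, n = 2 each). The WT libraries were almost equal and both KO libraries stood far above them. The log2 fold change was 1.03 ± 0.19 (SE), a 2.04-fold difference, with 0.85 within number 1 and 1.17 within number 3. Tap1 did not pass edgeR (unadjusted p = 0.00382, adjusted p = 1) and passed DESeq2 (adjusted p = 0.0422). DESeq2 no longer called it when any 1 of the 4 libraries was left out: the adjusted p was 0.108 without KO 1, 1 without KO 3, 0.599 without WT 1 and 0.949 without WT 3. The log2 fold change by DESeq2 stayed between 0.83 (without KO 3) and 1.21 (without KO 1), against 1.03 with all 4 libraries. Each of these fits has 1 library in an arm, so that the other arm alone supplies the spread, and the lone library is assumed to vary like it.

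Tap2 (ENSMUSG00000024339, chromosome 17, 34203527 to 34216321, plus strand) encodes the partner subunit of the transporter. It stood at 68.2 and 68.5 CPM in KO 1 and KO 3, against 60.6 and 48.3 CPM in WT 1 and WT 3. The groups did not overlap, but the difference was smaller than that of Tap1, with a log2 fold change of 0.33 ± 0.18 (SE; edgeR adjusted p = 1, unadjusted p = 0.129). Number 1 gave 0.17 and number 3 gave 0.50. The gap between the fold changes of Tap1 and Tap2 was not tested. Per kb of mRNA, Tap1 stood at 22.2 and 28.6 CPM in KO 1 and KO 3, against 12.3 and 12.7 CPM in WT 1 and WT 3, and Tap2 at 19.8 and 19.9 CPM in KO 1 and KO 3, against 17.6 and 14.0 CPM in WT 1 and WT 3. By that length Tap1 was the higher of the pair in both KO libraries and the lower in both WT libraries. On the deposited FPKM, however, Tap1 was the lower in every library. Tap1 stood there at 10.8 and 13.8 in KO 1 and KO 3, against 5.90 and 6.24 in WT 1 and WT 3. Tap2 stood at 16.2 and 16.2 in KO 1 and KO 3, against 14.3 and 11.7 in WT 1 and WT 3. The order of the pair thus depends on the length used.

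Psmb9 and Tap1 lie head to head on opposite strands of chromosome 17. Their RefSeq starts are 226 bases apart, their promoter windows share 275 bases, and their annotated gene bodies overlap by 212 bases, so reads from the overlap could be assigned to either where counting ignored the strand, which is not stated. The Tap1 window is shown because both genes are read outward from it. The GC box in it, on the minus strand, begins 176 bases upstream of the Tap1 start and lies 55 bases upstream of the Psmb9 start in the Psmb9 direction. GAS and ISRE were not found in these letters. The log2 fold change was 1.03 ± 0.19 for Tap1 and 0.37 ± 0.32 for Psmb9 (SE). The difference between library numbers was 0.21 for Tap1 and -0.57 for Psmb9. These gaps between Tap1 and Psmb9 were not tested.
Tap1, chr17:34187306-34187605, plus strand: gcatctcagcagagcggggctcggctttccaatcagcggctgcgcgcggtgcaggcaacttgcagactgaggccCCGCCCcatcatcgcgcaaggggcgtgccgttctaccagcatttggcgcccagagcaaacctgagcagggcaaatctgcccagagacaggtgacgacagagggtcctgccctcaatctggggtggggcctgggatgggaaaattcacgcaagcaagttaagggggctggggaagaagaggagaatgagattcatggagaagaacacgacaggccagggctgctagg

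Tapbp (ENSMUSG00000024308, chromosome 17, 33915899 to 33926197, plus strand) encodes tapasin, which bridges the transporter and the class I heavy chain. It stood at 272 and 157 CPM in KO 1 and KO 3, against 145 and 127 CPM in WT 1 and WT 3. KO 1 stood far above the other 3 libraries, and KO 3 only slightly above WT 1. The log2 fold change was 0.66 ± 0.30 (SE; edgeR adjusted p = 1, unadjusted p = 0.0869). It was 0.91 in number 1, 0.31 in number 3 and 0.23 without KO 1. Its annotated body overlaps Zbtb22 on the same strand by 3422 bases, so part of its count is uncertain.

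Erap1 (ENSMUSG00000021583, chromosome 13, 74639568 to 74693201, plus strand) encodes the aminopeptidase that trims peptides in the endoplasmic reticulum. It stood at 93.3 and 114 CPM in KO 1 and KO 3, against 72.9 and 95.1 CPM in WT 1 and WT 3. KO 1 lay just below WT 3, so the groups overlapped, although KO was higher within number 1 by 0.36 and within number 3 by 0.26. The log2 fold change was 0.30 ± 0.21 (SE; edgeR adjusted p = 1, unadjusted p = 0.214). Erap1 overlaps Cast on the opposite strand by 834 bases, and 834 of its 5644 mRNA bases match Cast transcripts. Cast had more counts than Erap1 in every library, so the count of Erap1 is uncertain where counting ignored the strand. The Erap1 promoter is shown as the other one with an ISRE motif. That motif lies on the minus strand and begins 4 bases upstream of the start, ahead of a GC box that begins 12 bases downstream.
Erap1, chr13:74639603-74639902, plus strand: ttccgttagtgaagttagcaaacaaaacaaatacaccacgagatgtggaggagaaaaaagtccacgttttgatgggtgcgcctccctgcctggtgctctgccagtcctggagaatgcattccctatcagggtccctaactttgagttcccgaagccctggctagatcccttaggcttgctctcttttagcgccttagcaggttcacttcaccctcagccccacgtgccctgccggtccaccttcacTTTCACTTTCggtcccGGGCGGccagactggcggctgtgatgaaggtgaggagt

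Nlrc5 (ENSMUSG00000074151, chromosome 8, 94434356 to 94527272, plus strand) encodes the transactivator of class I genes. It stood at 84.2 and 97.5 CPM in KO 1 and KO 3, against 76.5 and 61.2 CPM in WT 1 and WT 3. Both KO values lay above both WT values, with a log2 fold change of 0.40 ± 0.19 (SE; edgeR adjusted p = 1, unadjusted p = 0.0919). KO exceeded WT by 0.14 in number 1 and by 0.67 in number 3, so KO 1 and WT 1 were close. Nlrc5 had the lowest level per kb of mRNA of the 10 genes in every library. That level was 11.1 and 12.9 CPM in KO 1 and KO 3, against 10.1 and 8.08 CPM in WT 1 and WT 3. On the deposited FPKM, by contrast, Psmb9 lay below Nlrc5 in every library. Psmb9 stood there at 8.14 and 5.26 in KO 1 and KO 3, against 6.05 and 4.31 in WT 1 and WT 3. Nlrc5 stood at 8.91 and 10.2 in KO 1 and KO 3, against 8.01 and 6.57 in WT 1 and WT 3.

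**Figure D3:**
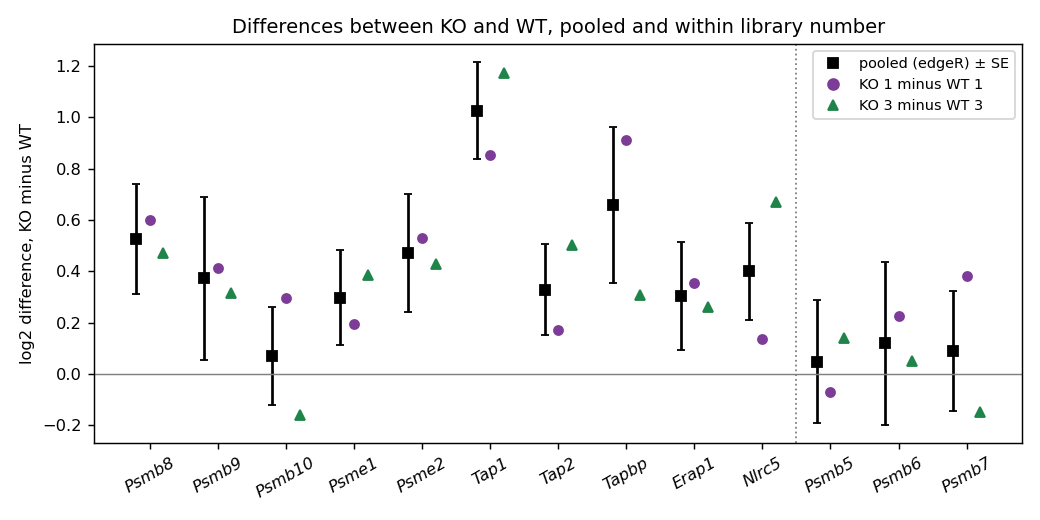
Log2 difference, KO minus WT, for the 10 genes and, right of the dotted line, the 3 constitutive counterparts, with black squares for the pooled edgeR fold change ± SE, circles for KO 1 minus WT 1 and triangles for KO 3 minus WT 3. Tap1 stands highest at 1.03, and of the 10 genes Psmb10 has its circle and triangle on opposite sides of 0.

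Per kb of mRNA the 10 genes covered a wide range, and only part of their order held across libraries. Psme2 was the highest in KO 3, WT 1 and WT 3, at 87.1 and 110 CPM in KO 1 and KO 3, against 60.3 and 81.8 CPM in WT 1 and WT 3. Tapbp was the highest in KO 1 where Psme2 is counted without its copy, at 93.8 and 54.2 CPM in KO 1 and KO 3, against 49.9 and 43.8 CPM in WT 1 and WT 3. With Psme2b added, Psme2 stood at 124 and 166 CPM in KO 1 and KO 3, against 94.6 and 118.7 CPM in WT 1 and WT 3, and was the highest in every library. Psme1 stood at 61.3 and 77.7 CPM in KO 1 and KO 3, against 53.5 and 59.5 CPM in WT 1 and WT 3. Psme2, Psme1, Psmb8 and Tapbp held the top 4 places in every library, and their ranges over the 4 libraries crossed. Psmb8 stood at 54.3 and 66.0 CPM in KO 1 and KO 3, against 35.9 and 47.6 CPM in WT 1 and WT 3. Below these, Psmb10, Psmb9, Tap1, Tap2 and Erap1 lay between 12.3 and 29.0 CPM, with ranges that crossed one another. This order depends on the length used. On the deposited FPKM, Tapbp (35.5) rather than Psme2 without its copy (29.3) was the highest in WT 1. Psmb10 (16.1) also lay above Psmb8 (15.4) in WT 1.

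Library number was tested with genotype as a covariate. In number 3 against number 1, 5 of the 10 genes were above 0 and 5 below, with a median of 0.10, where 49.6% of all genes tested were above 0. edgeR called 0 of the 10, against 0.707% of all genes tested (122 genes), and DESeq2 called 0 of the 10, against 4.91%. At an unadjusted edgeR p under 0.05, which 17.6% of all genes tested passed in either direction, Psmb8 (0.35), Psme2 (0.39) and Erap1 (0.34) were higher in number 3, and Psmb9 (-0.57) was lower. Tapbp had a log2 difference of -0.49 ± 0.19 (SE). The 10 genes thus did not share a direction between numbers, whereas between genotypes all 10 pooled fold changes were above 0. The main genotype fit had no term for number, so unadjusted p-values of these unlike fits are not comparable.

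The rest of the proteasome had list medians near 0 in the same comparison. Of the 14 constitutive 20S core genes, 11 were above 0 and 3 below, with log2 fold changes from -0.12 to 0.29 and a median of 0.09, which was 0.12 in number 1 and 0.04 in number 3. Its most abundant genes by mean FPKM were Psma6 (0.13), Psmb2 (0.13) and Psma5 (0.29). Of the 18 genes of the 19S cap, which recognises and unfolds substrates, 11 were above 0 and 7 below, with log2 fold changes from -0.16 to 0.34 and a median of 0.02, so that the highest cap gene stood above Psme1, Erap1 and Tap2. In the cap the most abundant were Psmc1 (-0.03), Psmd2 (0.02) and Psmc5 (-0.06). Both KO libraries lay above both WT libraries for 1 of the 14 core genes and 1 of the 18 cap genes. Of 9 other activators, inhibitors and assembly factors, 6 were above 0 and 3 below, with a median of 0.06. Psme2b (0.38), Psme3 (0.03), which encodes the nuclear activator PA28 gamma, and Psme4 (0.26), which encodes the activator PA200, were the most abundant of them. The germ cell subunit gene Psma8 stood at 1.20 and 1.66 CPM in KO 1 and KO 3, against 0.700 and 0.823 CPM in WT 1 and WT 3 (log2 fold change 0.90 ± 0.47, SE), and both KO values lay above both WT values. The thymic subunit gene Psmb11 was listed at 0 in all 4 libraries. In these lists edgeR and DESeq2 called 0 genes, and 0 had an unadjusted edgeR p under 0.05.

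Other genes of peptide loading and its chaperones lay between the set and the core proteasome. Of 8 tested, 6 were above 0 and 2 below, with a median of 0.21, which was 0.14 in number 1 and 0.30 in number 3. Calr, which encodes the chaperone calreticulin of the loading complex, had a log2 fold change of 0.32 ± 0.33, and Pdia3, which encodes the thiol oxidoreductase that pairs with tapasin, one of 0.41 ± 0.22 (SE). Hspa5, which encodes the general chaperone BiP, stood at 803 and 994 CPM in KO 1 and KO 3, against 632 and 448 CPM in WT 1 and WT 3 (0.73 ± 0.25; edgeR adjusted p = 1, unadjusted p = 0.0376). The class I chain genes H2-K1, H2-D1 and B2m had log2 fold changes of 0.26, 0.13 and 0.25, and both KO libraries lay above both WT libraries for 1 of the 3, H2-D1. edgeR and DESeq2 called 0 genes of both lists.

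**Figure D4:**
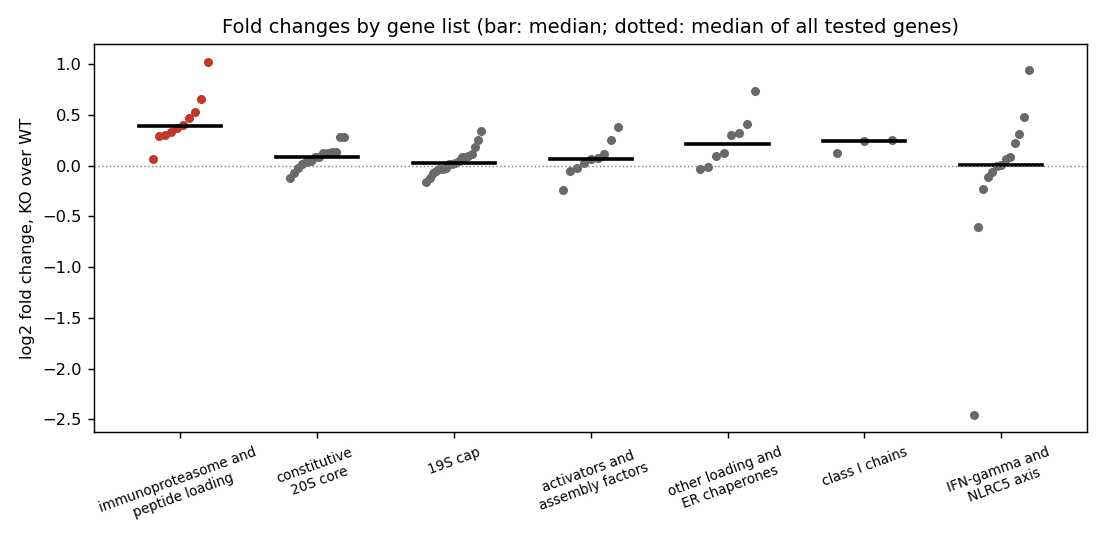
Log2 fold change, KO over WT, of each tested gene by list, with a bar at the list median and a dotted line at the median of all tested genes. The 10 immunoproteasome and peptide-loading genes in red have a median of 0.39, against 0.09 for the constitutive 20S core and 0.02 for the 19S cap.

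The genes that act upstream of the set had no shared direction. Of 13 genes of the interferon gamma receptor pathway and of the NLRC5 and RFX axis, 7 were above 0 and 6 below, with a median of 0.01, and edgeR and DESeq2 called 0 of them. The most abundant were Ifngr2 (0.08) and Ifngr1 (-0.11), which encode the receptor chains, and Jak1 (0.01), which encodes a kinase of that receptor. Irf1, which encodes an interferon-induced transcription factor and was singled out after its values were seen, stood at 86.4 and 102 CPM in KO 1 and KO 3, against 82.1 and 78.96 CPM in WT 1 and WT 3 (0.22 ± 0.16). Socs1, which encodes an inhibitor of the receptor kinases and had the lowest fold change of the list (-2.46, also singled out afterwards), stood at 0.208 and 1.17 CPM in KO 1 and KO 3, against 6.26 and 1.39 CPM in WT 1 and WT 3. WT 1 stood apart from the other 3 libraries in that gene. Ifng itself was at or near the detection limit, at 0.368 and 0.152 CPM in KO 1 and KO 3, against 0 and 0.339 CPM in WT 1 and WT 3, where 12 counts (3 read pairs, if each gave 4) would give 0.152 to 0.221 CPM.

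Markers of other cells that a co-culture could hold were measured in the same libraries. Of 8 epithelial and carcinoma markers, Epcam, Krt8, Krt18, Cldn4 and Cdx2 were at 0 in all 4 libraries, and the list summed to 1.78 and 1.54 CPM in KO 1 and KO 3, against 0.865 and 1.73 CPM in WT 1 and WT 3. Of 9 T and NK cell markers, Cd3e and Cd8a were at 0 throughout, and the sum of 25.4 and 23.9 CPM in KO 1 and KO 3, against 17.2 and 24.2 CPM in WT 1 and WT 3, came almost wholly from Cd4. The NK cell marker Klrb1c stood at 0.496 and 0.202 CPM in KO 1 and KO 3, against 0 and 0 CPM in WT 1 and WT 3. The 6 dendritic cell markers summed to 5.68 and 4.13 CPM in KO 1 and KO 3, against 5.27 and 4.55 CPM in WT 1 and WT 3, and the 5 B cell markers to 10.2 and 2.65 CPM in KO 1 and KO 3, against 5.47 and 3.07 CPM in WT 1 and WT 3. The 5 neutrophil markers, mostly S100a8, summed to 19.6 and 26.4 CPM in KO 1 and KO 3, against 14.7 and 17.4 CPM in WT 1 and WT 3, so both KO sums lay above both WT sums, with Ly6g at 0 throughout. The 6 fibroblast markers summed to 333 and 496 CPM in KO 1 and KO 3, against 423 and 799 CPM in WT 1 and WT 3, lower in KO within each number. The part of these cells in the differences of the 10 genes was not tested.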

How the data were processed

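Poly(A) RNA was sequenced as strand-marked paired reads, per the labels' protocols. The submitters' processing notes name cutadapt 1.9, HISAT2 2.0.4, StringTie 1.3.4d, edgeR and DESeq2 without their roles; the genome build, the strand setting and the treatment of reads with several matches are not given in the sources used here. Per the file headers, the deposited table pairs estimated counts with FPKM for each gene in each library. The authors' estimated counts carry no normalization and need no rounding, being whole. The deposited FPKM are the authors' values per gene length and library size. A further 4 columns of values, from libraries that match no sample, were not used. Coordinates are those of the table; 86.9% of 55141 shared identifiers, and 7 of the 10 members, have the same position in GENCODE M21 (GRCm38).

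Counts were tested over all genes with edgeR 4.0.16 (R 4.3.3; quasi-likelihood test, TMM, filterByExpr, two-sided, Benjamini-Hochberg threshold 0.05) and, as an alternative, DESeq2 1.42.0. Each standard error is the log2 fold change over the square root of F. Differences within a number use log2 CPM with a prior count of 2. FPKM ratios were compared with an exact permutation test, and limma 3.58.1 was run on log2(FPKM + 1) and log2(FPKM + 0.1). Near-identical copies were sought with blastn 2.17.0 among GENCODE M21 transcripts. The tests were tried on simulated counts. Named genes were the 10 members, the 3 constitutive counterparts and, of each other list, the 3 with the highest mean FPKM plus any called; members and lists were chosen with earlier results of these data known. The detection limit given for a low gene covers counting error only, while standard errors also hold the spread between libraries.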

Additional observations from a re-analysis of the deposited data

Results flagged for a closer look

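The log2 difference of Psmb10, KO minus WT, had opposite signs in the libraries of number 1 (0.30) and number 3 (-0.16). Each number holds 1 KO and 1 WT library, and the difference between the numbers was not tested.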

How the results depend on the processing

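edgeR called 0 genes between KO and WT with each scaling, filter or count scale tried, with limma on FPKM, and without any 1 library. DESeq2 called 74 genes, 1 of them in the set, and 175 genes with the replicate block, again with 1 of the set (Tap1, adjusted p = 0.0422 and 0.00140). The labels do not say that the library numbers pair mice, though the deviations of KO 1 and WT 1 from their group means had a Pearson r of 0.42 across 17260 genes, which are not independent replicates. With the replicate block edgeR called 0 of the 10 genes and their median log2 fold change was 0.385. The differences of the 3 subunit ratios (0.50 for Psmb8 to Psmb5) are equal with and without the block by construction, since each number holds 1 KO and 1 WT library. Over all settings tried, each of the 10 genes kept its direction except Psmb10, which stood at -0.0411 without KO 1 and -0.0279 without WT 1 by edgeR, and at -0.0417 without KO 1 and -0.0272 without WT 1 by DESeq2; by edgeR its range without 1 library was -0.0411 to 0.184. The sizes moved more: without 1 library the edgeR log2 fold change ran from 0.050 (without KO 1) to 0.66 for Psmb9, from 0.12 (without KO 3) to 0.48 for Psme1, from 0.13 (without WT 1) to 0.51 for Erap1, from 0.18 (without WT 3) to 0.51 for Tap2, from 0.23 (without KO 1) to 1.00 for Tapbp, from 0.25 (without WT 3) to 0.58 for Nlrc5, from 0.28 (without WT 1) to 0.71 for Psme2, from 0.34 (without WT 1) to 0.75 for Psmb8, and from 0.83 (without KO 3) to 1.22 for Tap1. The Psmb9 to Psmb6 difference ranged from -0.382 without WT 3 to 0.836 without WT 1, and that of Psmb10 to Psmb7 from -0.223 to 0.126; leaving out 1 library mixes number with genotype. The median of the 10 ranged from 0.309 without KO 3 to 0.466 without KO 1. Between numbers, DESeq2 called 1230 genes where edgeR called 122. DESeq2 without each library, and the sums of genes with their copies, were added after the data were seen. All p-values rest on 2 libraries per group.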

Other observations

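The ratio of Psmb8 to Psmb5 depends on the length and on the copy of Psmb5 that are used. Per kb of the longest coding mRNA and without Gm3375, it was 2.51 and 2.25 in KO 1 and KO 3, against 1.58 and 1.79 in WT 1 and WT 3, so Psmb8 would be the more abundant in every library. With Gm3375 added to Psmb5, it was below 1 in both WT libraries (0.760 and 0.828) and just above 1 in both KO libraries (1.07 and 1.03). The log2 difference between genotypes was 0.50 and 0.41 in these forms. Among the 17260 genes tested, the fold change of Tap1 was above that of 96.6%, that of Tapbp above 93.0%, and that of Psmb10 above 60.5%.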
